A study of Mus musculus with 14 samples.

Results

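The NFκB family and its inhibitors were examined here through the chromatin regions of 7 genes, the subunit genes Nfkb1, Nfkb2, Rel, Rela and Relb and the inhibitor genes Nfkbia and Tnfaip3. A region of the deposited count table was taken as a member if the nearest protein-coding start to its midpoint belonged to 1 of these genes or if the midpoint lay in the body of 1 of them. This gave 88 of the 67254 regions, of which 26 belonged to Nfkb1, 4 to Nfkb2, 10 to Rel, 2 to Rela, 2 to Relb, 14 to Nfkbia and 30 to Tnfaip3. A filter on low counts left 85 of them among 61366 tested regions, and the 3 that did not pass lay near Tnfaip3, Rel and Nfkbia with mean counts of at most 6.5 per library. Distances of regions are from the midpoint to the nearest protein-coding start in RefSeq, which need not be the end of the gene. Nearness does not show which gene a distant region acts on.

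NFκB proteins bind DNA as dimers and switch on genes for lymphocyte activation, survival and inflammation. In resting cells inhibitor proteins keep the dimers out of the nucleus, and antigen receptor, costimulatory or cytokine receptor signals remove these inhibitors. In Tregs, NFκB activity is known to be needed for their development and for the effector state, and c-Rel, the product of Rel, acts on Foxp3 itself. The inhibitors are also targets of the pathway, so that their genes respond to the factors that they restrain.

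Bulk ATAC-seq, in which a transposase cuts open chromatin, was performed on Tregs of the spleen from mixed bone marrow (BM) chimeras, with 14 libraries in 4 groups. CD45.2+ BM from Foxp3Cre Atg14+/fl mice (control) or Foxp3Cre Atg14fl/fl mice (Atg14-deficient) was mixed with CD45.1+ wild-type BM and transferred into sublethally irradiated Rag1-/- hosts, and the CD45.2+ Tregs were sorted into central (cTreg, CD44-) and effector (eTreg, CD44+) cells by surface markers that included CD44. There were 3 control cTreg, 4 Atg14-deficient cTreg, 3 control eTreg and 4 Atg14-deficient eTreg libraries. The Cre recombinase is driven by Foxp3, so that deletion affects the Foxp3+ cells from the CD45.2+ BM. The controls carry the Cre and a floxed Atg14 allele too. Atg14 encodes a subunit of the Vps34 lipid kinase complex that starts autophagy, the recycling of cell contents. The hosts lack mature T and B cells of their own, and the sorted cells developed beside wild-type Tregs. By the study's description both states of a genotype were sorted from the spleens of one set of chimeras, with as many mice as libraries of each state. cTreg and eTreg libraries may therefore share mice, but the labels do not tie a library number to a mouse.

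Total counts were between 2242983 and 5548189 per library, and the mean count per library had a median of 37.4 over the member regions. Promoter regions of Foxp3, Ikzf2 and Cd4 were not in the table, and those of the Treg genes Il2ra, Ctla4 and Cd3e summed to between 56.8 and 112 counts per 1000000 counts of the library (CPM) in every library. The promoter regions of 3 cTreg genes (Ccr7, Tcf7 and Lef1) summed to 108.2 to 121 CPM in control cTregs and 62.7 to 87.9 CPM in control eTregs. In Atg14-deficient cells the sums overlapped, at 91.1 to 136 CPM in cTregs and 88.35 to 112.1 CPM in eTregs. There the mean fell from cTregs to eTregs for Ccr7 (37.3 to 19.5 CPM) and Tcf7 (8.16 to 5.36 CPM). The mean of Lef1, the largest part of the sum, was 72.8 CPM in cTregs and 78.8 CPM in eTregs. Those of 5 eTreg genes (Icos, Prdm1, Klrg1, Batf and Cd44) overlapped between the control groups, at 120.4 to 134 and 109.8 to 129 CPM. Of the markers of other cells, no promoter region was present for 3 B cell genes or the NK gene Ncr1, and 1 of 4 myeloid genes, Cd14, had one, at 2.52 to 7.01 CPM. The CD8 T cell gene Cd8b1 had a promoter region with 15.6 to 16.9 CPM in control cTregs, 10.3 to 21.4 in Atg14-deficient cTregs, 2.62 to 6.83 in control eTregs and 1.54 to 6.35 in Atg14-deficient eTregs, while Cd8a had none. This marker moved with cell state, and its part in the results was not tested.

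The sequences of 6 regions and 1 promoter are shown because the results turn on them. They are the Tnfaip3, Nfkb1 and Rel regions that were less open in eTregs of both genotypes, the nearby Nfkbia region with the largest change in Atg14-deficient cells, the Nfkbia region with the clearest value between genotypes, the Tnfaip3 region that was more open in eTregs, and the bases upstream of the Nfkbia start. They are from RefSeq's GRCm38.p6 genome, 5′ to 3′ on the plus strand unless stated, and cover the central 300 bases of the region (the whole region for the 244 bases near Nfkbia) or the 250 bases before the start. Capitals mark matches to the NFκB motif GGGANNTTCC (reverse complement GGAANNTCCC) or the AP-1 motif TGANTCA.
Tnfaip3, 101.7 kb upstream, chr10:19117009-19117308: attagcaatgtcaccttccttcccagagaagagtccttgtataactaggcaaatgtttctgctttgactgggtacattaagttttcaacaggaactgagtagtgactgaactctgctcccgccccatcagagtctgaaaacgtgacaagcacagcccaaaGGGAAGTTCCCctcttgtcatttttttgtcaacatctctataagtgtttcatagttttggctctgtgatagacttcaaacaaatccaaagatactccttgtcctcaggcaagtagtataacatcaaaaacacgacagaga
Nfkb1 intron, 89.2 kb into the gene, chr3:135602174-135602473: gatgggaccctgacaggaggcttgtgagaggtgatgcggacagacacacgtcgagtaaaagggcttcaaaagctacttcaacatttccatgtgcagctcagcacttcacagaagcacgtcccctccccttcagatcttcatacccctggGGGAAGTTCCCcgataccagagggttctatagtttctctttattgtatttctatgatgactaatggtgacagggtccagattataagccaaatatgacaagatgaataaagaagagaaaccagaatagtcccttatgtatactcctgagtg
Rel, 31.1 kb upstream, chr11:23801950-23802249: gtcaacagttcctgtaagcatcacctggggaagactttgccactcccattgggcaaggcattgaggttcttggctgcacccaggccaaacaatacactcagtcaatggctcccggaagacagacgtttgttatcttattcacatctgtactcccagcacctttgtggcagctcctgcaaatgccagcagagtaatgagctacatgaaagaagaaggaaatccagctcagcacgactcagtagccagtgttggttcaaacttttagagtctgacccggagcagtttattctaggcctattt
Nfkbia, 5.3 kb upstream, chr12:55497813-55498056: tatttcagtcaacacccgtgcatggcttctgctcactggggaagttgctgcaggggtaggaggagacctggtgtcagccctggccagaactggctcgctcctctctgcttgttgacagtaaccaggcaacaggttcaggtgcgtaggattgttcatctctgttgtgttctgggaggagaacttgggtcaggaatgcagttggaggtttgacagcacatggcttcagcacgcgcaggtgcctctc
Nfkbia, 27.7 kb downstream, chr12:55464801-55465100: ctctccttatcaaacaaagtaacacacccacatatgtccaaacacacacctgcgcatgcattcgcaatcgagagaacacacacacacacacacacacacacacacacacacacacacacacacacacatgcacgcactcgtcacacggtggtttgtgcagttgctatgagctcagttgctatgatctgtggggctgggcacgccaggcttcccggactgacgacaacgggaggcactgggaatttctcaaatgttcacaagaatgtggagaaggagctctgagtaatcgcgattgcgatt
Tnfaip3, 70.3 kb downstream, chr10:18941483-18941782: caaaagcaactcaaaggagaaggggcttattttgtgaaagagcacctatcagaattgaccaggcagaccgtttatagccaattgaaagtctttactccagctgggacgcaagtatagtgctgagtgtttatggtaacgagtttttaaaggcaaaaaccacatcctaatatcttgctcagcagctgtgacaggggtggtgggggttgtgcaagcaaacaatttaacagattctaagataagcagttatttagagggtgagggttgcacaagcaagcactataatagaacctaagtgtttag
Nfkbia promoter, minus strand, chr12:55492648-55492897: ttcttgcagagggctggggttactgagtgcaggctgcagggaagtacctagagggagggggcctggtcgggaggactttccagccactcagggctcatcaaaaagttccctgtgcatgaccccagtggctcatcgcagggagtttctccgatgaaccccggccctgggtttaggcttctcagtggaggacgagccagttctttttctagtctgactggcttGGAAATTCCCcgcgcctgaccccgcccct

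The Tnfaip3 and Nfkb1 regions hold the same 11 bases, GGGAAGTTCCC, in which a match on each strand overlaps. The Nfkbia promoter holds 1 match, and the other 4 sequences hold no match to either motif in these windows. The central 300 bases, or the whole of a shorter region, held the NFκB motif in 1.82% of the 61322 tested regions on chromosomes, against 4 of 85 member regions (4.71%), and the AP-1 motif in 14.2%, against 13 of 85 (15.3%). A looser motif, GGGNNNNNCC, was in 42.6% of all tested regions and in 39 of 85 member regions, and its letters include those of GGGANNTTCC. Beside these 2 regions, the NFκB motif was found in a region 45.6 kb downstream of Nfkbia and in an Nfkb2 promoter region. Promoter sequences in the RefSeq table were matched for 5 of the 7 genes, leaving out Nfkb1 and Relb, and in the 250 bases before the starts the NFκB motif was found at Nfkbia and at 2 of the 3 Nfkb2 starts. It was in 1.21% of all 32851 promoters of that table. These are matches of letters and do not show binding.

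The first question was how the loci differ between central and effector Tregs of the control genotype. In control cells the NFκB loci were less open in eTregs at 7 of the 85 tested regions and more open at 0. A region was called if its Benjamini-Hochberg adjusted p in edgeR's quasi-likelihood test was below 0.05 and its log2 fold change beyond 0.5. Over all tested regions 3.29% were called lower and 2.01% higher in this comparison, and 8.24% of the member regions were called. The median log2 fold change was -0.39 over the member regions, of which 67 were below 0, and -0.01 over all tested regions. The called regions were 3 of Nfkb1, 2 of Tnfaip3, 1 of Rel and 1 of Nfkbia, and none was a promoter. At an unadjusted edgeR p below 0.05 there were 33 regions, 5 of them higher, against 19.9% of all tested regions, with 8.75% higher. The DESeq2 Wald test called 9 lower and 1 higher at the adjusted threshold, against 3.84% and 2.98%. With the replicate number within a genotype as a block, 15 regions were called lower and 2 higher, against 5.7% and 4.67% of all tested regions in that fit. The count depended on single libraries, since it was 3 without control cTreg replicate 1 or control eTreg replicate 2 and 4 without control cTreg replicate 3 or control eTreg replicate 1. In bulk chromatin, fewer cells with an open region and a region that is less open in each cell cannot be told apart.

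In Atg14-deficient cells, 19 of the 85 regions were called lower in eTregs and 2 higher, against 5.4% and 4.41% of all tested regions. The median log2 fold change was -0.31 over the member regions, of which 58 were below 0, and 0.02 over all tested regions. Of the 23 regions called in either genotype, 5 were called in both, which is 71.4% of those called in control cells and 23.8% of those in Atg14-deficient cells. Over all tested regions these shares were 62.3% and 33.6%. The count of 21 fell to 9 without Atg14-deficient cTreg replicate 3 or eTreg replicate 4, to 11 without cTreg replicate 1 and to 12 without eTreg replicate 1. More libraries were available for this genotype (4 against 4, with 3 against 3 in control cells). The share of each library's counts in the member regions was 0.176% to 0.185% in control cTregs, 0.178% to 0.192% in Atg14-deficient cTregs, 0.138% to 0.149% in control eTregs and 0.147% to 0.160% in Atg14-deficient eTregs, so that no eTreg library reached a cTreg library.

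**Figure D1:**
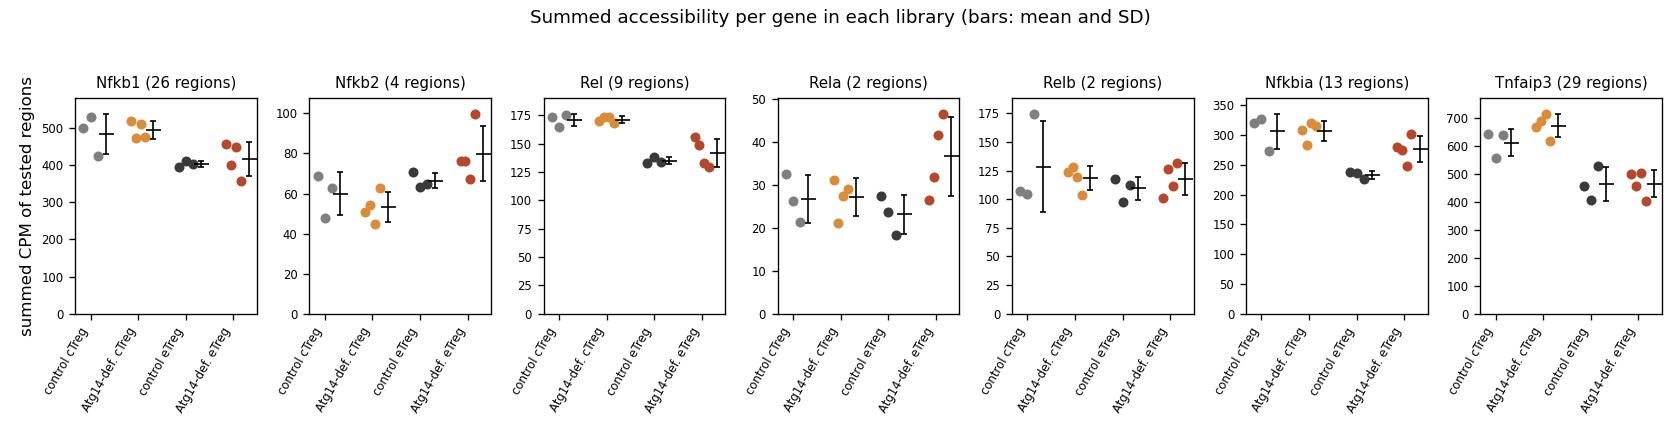
CPM summed over the tested regions of each gene (y axis, from 0) in each library, by group, with the mean and SD beside the points. For Rel, the control eTreg libraries lie between 133 and 138 CPM and the control cTreg libraries between 165 and 175 CPM.

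Summed over its tested regions, Rel had 171 ± 5.62 CPM (SD, n = 3) in control cTregs, 171 ± 2.83 (n = 4) in Atg14-deficient cTregs, 135 ± 2.78 (n = 3) in control eTregs and 142 ± 12.7 (n = 4) in Atg14-deficient eTregs. For Tnfaip3 the sums were 611 ± 49.1, 672 ± 41.1, 463 ± 59.9 and 465 ± 47.4 CPM in the same order. Nfkb1 had 484 ± 54.3, 495 ± 23.8, 403 ± 8.62 and 416 ± 46.3 CPM. For these 3 genes the sum was higher in every cTreg library than in any eTreg library of the same genotype. Nfkbia had 307 ± 29.4, 307 ± 16.5, 233 ± 6.21 and 276 ± 22.0 CPM. Nfkb2 ran the other way, with 59.9 ± 10.8, 53.2 ± 7.50, 66.3 ± 3.75 and 80.0 ± 13.9 CPM, and its control groups overlapped. Sums over regions depend on how many regions were found near a gene and on their length, so levels were not compared between genes.

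Of the subunit genes, Nfkb1 encodes a precursor whose processed form lacks an activation domain and pairs with the other subunits. It covers chr3:135584655-135691969 on the minus strand of GRCm38, and 21 of its 26 regions lay in the gene body. The intron region 89.2 kb into the gene, chr3:135602173-135602475, held 8.80, 10.5 and 8.03 CPM in the control cTreg libraries and 0.651, 2.1 and 2.16 CPM in the control eTreg libraries. In Atg14-deficient cells it held 15.1, 7.01, 11.6 and 13.5 CPM in cTregs and 3.00, 3.35, 1.59 and 5.14 CPM in eTregs. All cTreg libraries were above all eTreg libraries of either genotype. The log2 fold change was -2.39 ± 0.47 (SE, edgeR adjusted p = 0.00274) in control and -1.84 ± 0.38 (edgeR adjusted p = 0.00279) in Atg14-deficient cells, and both calls held under every alternative that could test the region. This is the Nfkb1 sequence that holds the NFκB motif.

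A neighbouring intron region 88.6 kb into the gene, chr3:135602819-135603122, was also less open in control eTregs, with a log2 fold change of -1.58 ± 0.44 (SE, edgeR adjusted p = 0.0332). It held 14.4, 13.6 and 13.4 CPM in control cTregs and 5.86, 4.20 and 3.97 CPM in control eTregs. In Atg14-deficient libraries it varied widely, from 7.79 to 26.0 CPM in cTregs and from 3.35 to 16.9 CPM in eTregs, and the log2 fold change there was -0.51 ± 0.36 (edgeR adjusted p = 0.386). Its call in control cells ended without control cTreg replicate 1 or 3 or any control eTreg replicate, with log2 fold changes between -1.76 and -1.47. The intron region 15.9 kb into the gene, chr3:135675511-135675856, was called lower in both genotypes, by -1.29 ± 0.34 in control (edgeR adjusted p = 0.0226) and -0.99 ± 0.29 in Atg14-deficient cells (edgeR adjusted p = 0.0295). The first call ended without control cTreg replicate 1 or 3 or any control eTreg replicate (-1.54 to -1.01), and the second without Atg14-deficient cTreg replicate 1 or 3 or eTreg replicate 1 or 4 (-1.12 to -0.78).

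Further Nfkb1 regions were called in Atg14-deficient cells, at 61.3 kb into the gene (-1.93 ± 0.57, edgeR adjusted p = 0.0283) and at 40.0 kb upstream (-0.55 ± 0.14, edgeR adjusted p = 0.0123). At 61.3 kb the groups overlapped, with a cTreg library at 1.84 CPM and an eTreg library at 3.18 CPM, and the call ended without Atg14-deficient cTreg replicate 1 or 4 or eTreg replicate 1, 2 or 4 (-2.72 to -1.54). The call at 40.0 kb ended without Atg14-deficient cTreg replicate 3 or eTreg replicate 2 (-0.61 to -0.47). Their log2 fold changes in control cells were -1.45 ± 0.59 and -0.23 ± 0.16 and were not called. The Nfkb1 promoter region, chr3:135690844-135691719, held 81.9, 77.6 and 78.5 CPM in control cTregs and 60.5, 61.9 and 57.7 CPM in control eTregs. These groups did not overlap, but the log2 fold change of -0.40 ± 0.13 was below the fold threshold and its edgeR adjusted p was 0.0764. The remaining 20 Nfkb1 regions were not called between states in either genotype.

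**Figure D2:**
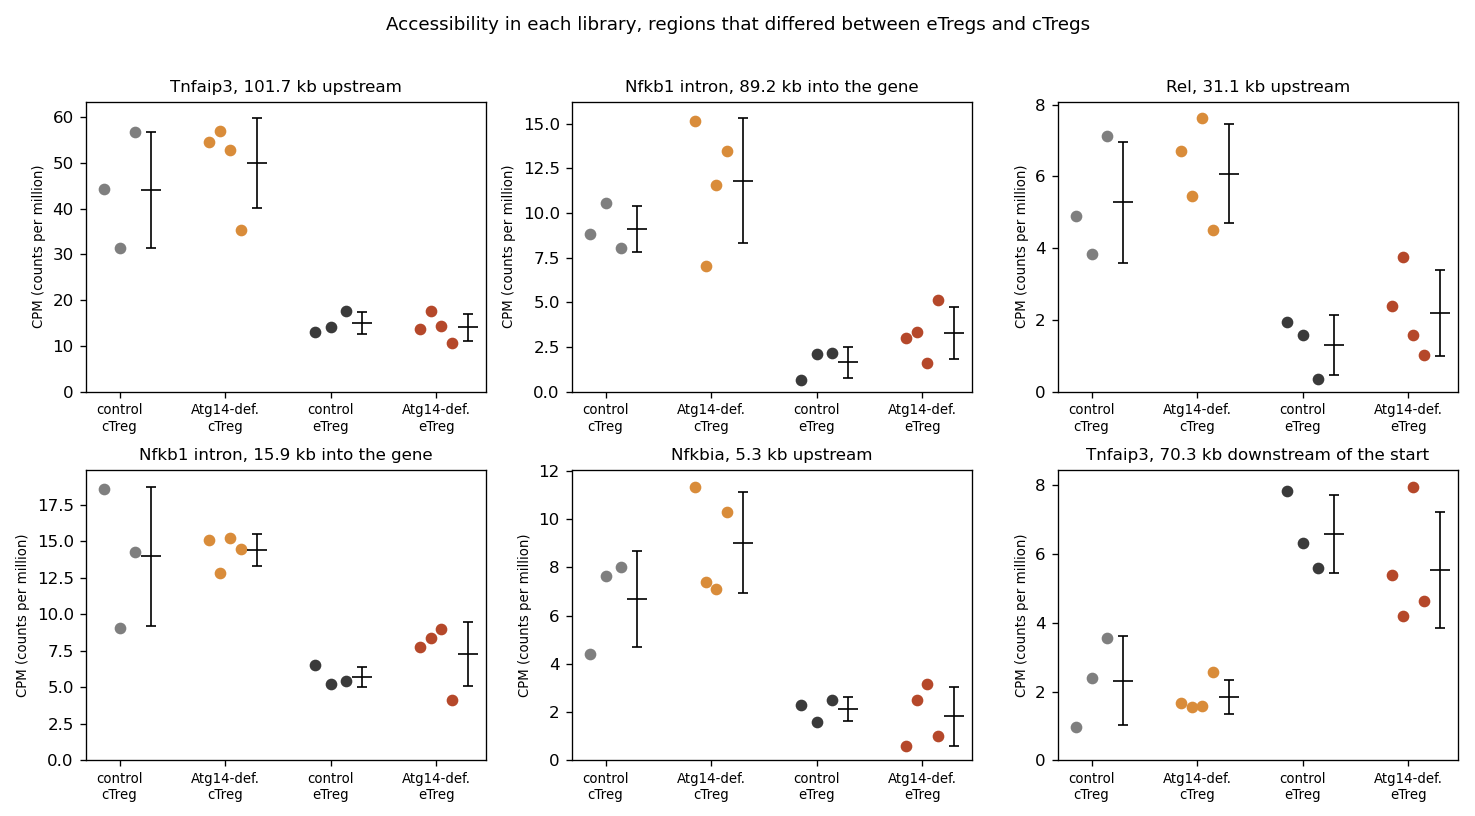
CPM (y axis, from 0) of 6 member regions in each library, by group, with the mean and SD beside the points. In the first 5 panels all eTreg libraries lie below all cTreg libraries of the same genotype, and in the Tnfaip3 region 70.3 kb downstream of the start they lie above.

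Rel, which encodes c-Rel, the subunit best known for its role in Treg development, covers chr11:23736847-23770969 on the minus strand. Of its 6 tested regions upstream of the promoter, 4 were called lower in eTregs in at least 1 genotype, and the promoter region was not called. Upstream by 31.1 kb, at chr11:23801950-23802249, the control cTreg libraries held 4.89, 3.83 and 7.13 CPM and the control eTreg libraries 1.95, 1.58 and 0.361 CPM. The Atg14-deficient libraries held 6.72, 5.45, 7.63 and 4.50 CPM in cTregs and 2.40, 3.77, 1.59 and 1.03 CPM in eTregs. The groups did not overlap within a genotype, at low counts. The log2 fold changes were -2.07 ± 0.60 (SE, edgeR adjusted p = 0.0386) and -1.52 ± 0.50 (edgeR adjusted p = 0.0466). Both calls were near the threshold, the control call ending without control cTreg replicate 1 or 3, any control eTreg replicate or Atg14-deficient cTreg replicate 3 (-2.48 to -1.54) and the Atg14-deficient call without cTreg replicate 1, 2 or 3, eTreg replicate 1, 3 or 4 or control cTreg replicate 1 (-1.86 to -1.27).

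The Rel regions 52.4, 48.0 and 7.9 kb upstream were called in Atg14-deficient cells, with log2 fold changes of -1.56 ± 0.37 (edgeR adjusted p = 0.00786), -1.20 ± 0.34 (edgeR adjusted p = 0.0219) and -1.37 ± 0.37 (edgeR adjusted p = 0.0169). The corresponding values in control cells, -1.23 ± 0.42, -1.18 ± 0.37 and -0.89 ± 0.41, were not called (edgeR adjusted p = 0.0812, 0.0585 and 0.214). They were called under 3 of 21, 6 of 22 and 0 of 21 alternatives. At the region 52.4 kb upstream the Atg14-deficient libraries held 16.8, 9.34, 12.1 and 13.5 CPM in cTregs and 1.20, 5.86, 5.82 and 4.62 CPM in eTregs, and its call held under every alternative that could test it. The call at 48.0 kb ended without Atg14-deficient cTreg replicate 2 or 3 or eTreg replicate 1 (-1.39 to -1.05), and that at 7.9 kb without cTreg replicate 1 or 4 or eTreg replicate 4 (-1.54 to -1.17). The Rel promoter region, chr11:23770541-23771978, held 94.5 ± 12.9, 93.1 ± 2.11, 86.5 ± 3.06 and 95.2 ± 10.1 CPM (SD) in control cTregs, Atg14-deficient cTregs, control eTregs and Atg14-deficient eTregs, and the groups overlapped within each genotype. Its log2 fold change between states was -0.12 ± 0.13 in control and 0.03 ± 0.11 in Atg14-deficient cells.

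Nfkb2, which encodes the precursor that pairs with RelB in the noncanonical pathway, covers chr19:46300994-46312400 on the plus strand, and its promoter was the only member promoter called higher in eTregs. The promoter region chr19:46304216-46305197 held 33.6, 32.7, 23.7 and 37.9 CPM in Atg14-deficient cTregs and 46.4, 47.7, 39.2 and 59.3 CPM in Atg14-deficient eTregs. All 4 eTreg libraries were above the 4 cTreg libraries, with a log2 fold change of 0.60 ± 0.16 (SE, edgeR adjusted p = 0.0190), and the call ended without Atg14-deficient cTreg replicate 3 or eTreg replicate 4 (0.47 to 0.70). In control cells the libraries held 41.8, 35.4 and 40.6 CPM in cTregs and 44.6, 37.8 and 44.0 CPM in eTregs, which overlapped, with a log2 fold change of 0.10 ± 0.18. The difference between the genotypes, 0.50 ± 0.25, had an edgeR adjusted p of 1.00. The next Nfkb2 promoter region, which holds the NFκB motif, had 0.63 ± 0.26 (edgeR adjusted p = 0.109) in Atg14-deficient and -0.20 ± 0.29 (edgeR adjusted p = 0.760) in control cells.

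Rela encodes the main activating subunit and Relb the partner of the Nfkb2 product. Neither had a region called between states, but with the replicate number as a block the Rela region 11.4 kb from the start was called higher in Atg14-deficient eTregs (0.83, against 0.82 ± 0.28 without it, edgeR adjusted p = 0.0579). It was called there too with loess offsets, at least 10 counts in every library, halved counts or the DESeq2 test and without control cTreg replicate 3 or Atg14-deficient eTreg replicate 2 (0.82 to 0.91). The Rela promoter region held 16.6 ± 1.23 CPM (SD) in control cTregs and 13.8 ± 3.68 in control eTregs, and the Relb promoter region held 121 ± 41.6 and 101 ± 10.3 CPM. Control cTreg replicate 3 was high at Relb, with 169 CPM against 96.8 and 97.9 CPM in the other libraries of its group. The log2 fold changes of the Relb promoter region were -0.25 ± 0.17 in control and -0.01 ± 0.15 in Atg14-deficient cells (edgeR adjusted p = 0.430 and 0.964).

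Of the inhibitor genes, Tnfaip3 encodes a ubiquitin-editing enzyme that ends signalling to NFκB, and covers chr10:19000910-19015410 on the minus strand. It has 2 protein-coding starts, 1 of them inside the gene, and distances are from the nearer start. It held 10 of the 23 regions called in either genotype. Upstream by 101.7 kb, at chr10:19116818-19117500, the control libraries held 44.2, 31.4 and 56.6 CPM in cTregs and 13.0, 14.2 and 17.7 CPM in eTregs. The Atg14-deficient libraries held 54.6, 56.8, 52.9 and 35.3 CPM in cTregs and 13.8, 17.6, 14.3 and 10.5 CPM in eTregs. The lowest cTreg library was well above the highest eTreg library. The log2 fold changes were -1.53 ± 0.24 (SE, edgeR adjusted p = 0.000362) and -1.84 ± 0.21 (edgeR adjusted p = 1.10e-05), the smallest adjusted p of any member region in each comparison, and both calls held under all 22 alternatives. This is the other region with the 11 bases GGGAAGTTCCC. A two-sided exact permutation test over libraries gave the smallest p that the numbers of libraries allow, 0.1 for 3 against 3 and 0.0286 for 4 against 4.

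The most distant Tnfaip3 region upstream, at 169.7 kb (chr10:19184864-19185320), was called in both genotypes too. It held 67.5, 53.4 and 60.2 CPM in control cTregs and 36.1, 24.4 and 42.9 CPM in control eTregs, with a log2 fold change of -0.80 ± 0.18 (SE, edgeR adjusted p = 0.0102), and -0.53 ± 0.16 (edgeR adjusted p = 0.0338) in Atg14-deficient cells. The second value was close to the fold threshold, its call ending without Atg14-deficient cTreg replicate 1, 2 or 3 or eTreg replicate 2 or 4 (-0.60 to -0.46), and the first without control cTreg replicate 1 or control eTreg replicate 2 (-1.0 to -0.60).

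A further 7 Tnfaip3 regions upstream or at the promoter were called lower in Atg14-deficient eTregs, at 124.0, 112.3, 107.0, 89.6, 62.9 and 28.7 kb upstream and 0.7 kb downstream of the outer start. Their log2 fold changes were between -1.68 ± 0.43 at 124.0 kb and -0.74 ± 0.22 at 89.6 kb. In control cells all of these were below 0 but not called, from -1.41 ± 0.47 at 124.0 kb to -0.46 ± 0.38 at 62.9 kb. The call at 107.0 kb (-1.18 ± 0.27, edgeR adjusted p = 0.00693) held under all 22 alternatives, the call at 124.0 kb ended without Atg14-deficient cTreg replicate 3, and each of the other 5 ended without any of 3 to 5 of the 8 Atg14-deficient libraries. Between them lay regions that were not called. At the start inside the gene, the nearest promoter region had -0.05 ± 0.23 in control and -0.25 ± 0.21 in Atg14-deficient cells. The promoter region nearest the outer start had -0.35 ± 0.17 and -0.25 ± 0.15, and neither region was called between states. The region at 47.0 kb upstream, which had the highest mean CPM of the Tnfaip3 regions over its 889 bp, held 166 ± 26.3 CPM (SD) in control cTregs and 149 ± 31.3 in control eTregs, with a log2 fold change of -0.15 ± 0.18. In Atg14-deficient cells it held 179 ± 27.7 CPM in cTregs and 128 ± 27.5 in eTregs, and its log2 fold change of -0.48 ± 0.16 was just short of a call (edgeR adjusted p = 0.0522).

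The Tnfaip3 region 70.3 kb downstream of the start, chr10:18941452-18941814, was called in the other direction. The Atg14-deficient libraries held 1.68, 1.56, 1.58 and 2.57 CPM in cTregs and 5.39, 4.18, 7.94 and 4.62 CPM in eTregs, and the control libraries 0.978, 2.39 and 3.57 CPM in cTregs and 7.81, 6.30 and 5.59 CPM in eTregs. In both genotypes all eTreg libraries were higher. The log2 fold changes were nearly equal, 1.57 ± 0.46 (SE, edgeR adjusted p = 0.0266) in Atg14-deficient and 1.56 ± 0.50 (edgeR adjusted p = 0.0644) in control cells, of which only the first was called, and that call ended without any of Atg14-deficient cTreg replicates 1, 2 and 3 or eTreg replicates 1 and 3 (1.34 to 1.78).

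**Figure D3:**
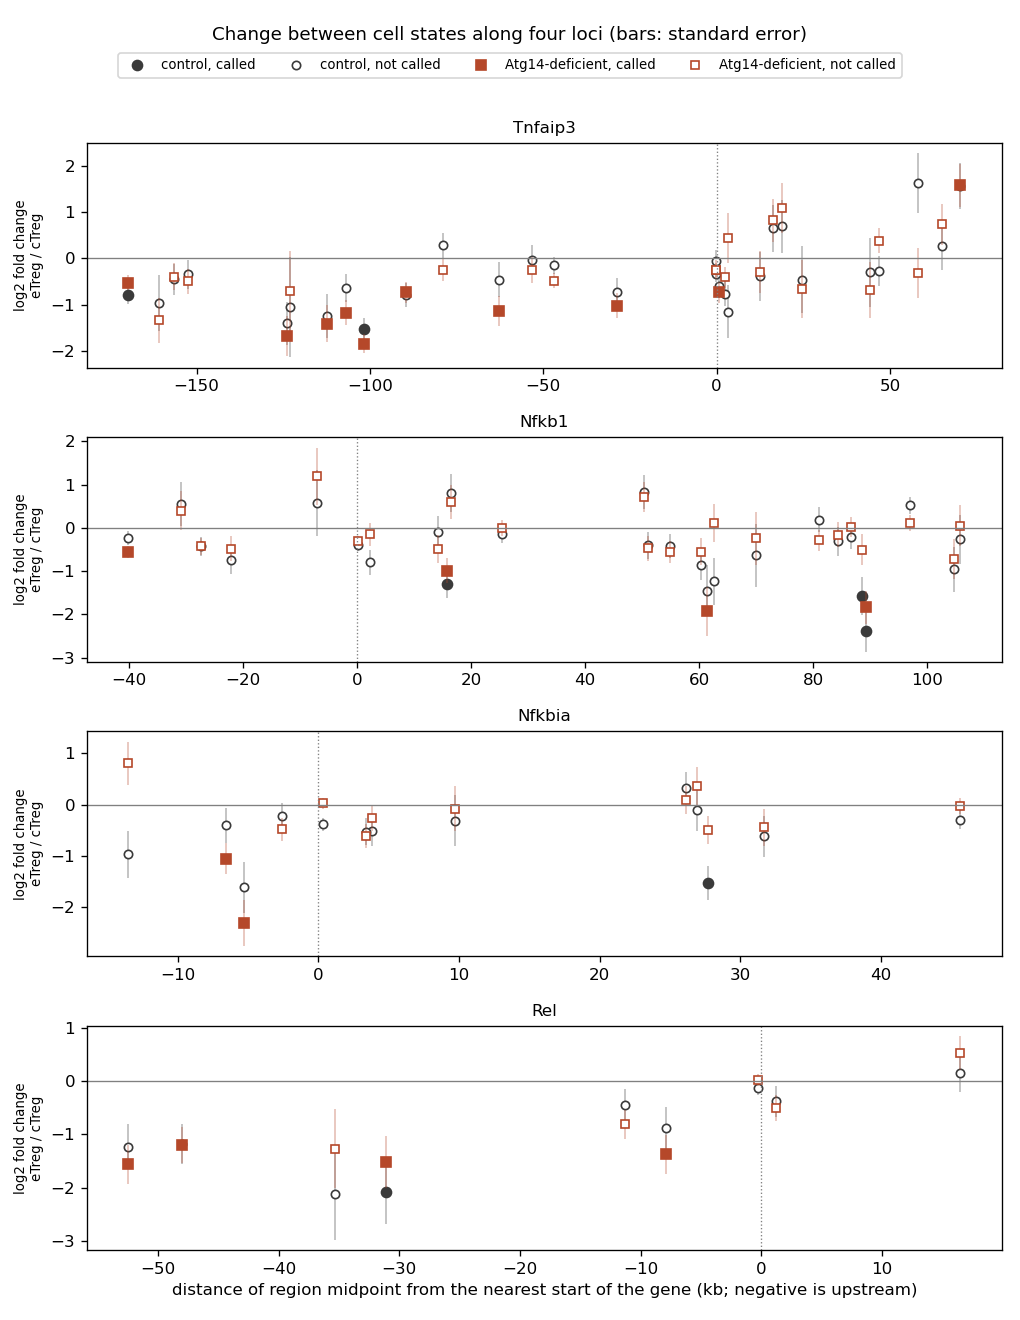
Log2 fold change of eTregs over cTregs (y axis, with SE bars) against the distance of each tested region from the nearest start of its gene (x axis, kb, negative is upstream) for 4 genes, in control (circles) and Atg14-deficient (squares) cells. Filled symbols are called. The called Tnfaip3 regions upstream lie below 0, and the region at 70.3 kb lies above.

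Nfkbia encodes the inhibitor that holds NFκB dimers in the cytoplasm and is itself a classical NFκB target. It covers chr12:55489409-55492647 on the minus strand, and 13 of its 14 regions lay outside the gene. Upstream by 5.3 kb, at chr12:55497813-55498056, the Atg14-deficient libraries held 11.3, 7.40, 7.10 and 10.3 CPM in cTregs and 0.599, 2.51, 3.18 and 1.03 CPM in eTregs. The control libraries held 4.40, 7.66 and 8.03 CPM in cTregs and 2.28, 1.58 and 2.52 CPM in eTregs. The groups did not overlap in either genotype. The log2 fold change was -2.29 ± 0.45 (SE, edgeR adjusted p = 0.00172) in Atg14-deficient cells and held under every alternative that could test it. In control cells it was -1.61 ± 0.50, just short of the threshold (edgeR adjusted p = 0.0526), and was called under 7 of 21 alternatives. Part of this region lies in an exon of the noncoding RNA gene Gm36634. The region 6.6 kb upstream was called lower in Atg14-deficient eTregs (-1.06 ± 0.30, edgeR adjusted p = 0.0242), although eTreg replicate 3 reached 12.4 CPM and overlapped the cTreg libraries. That call ended without Atg14-deficient cTreg replicate 2 or 3 or eTreg replicate 1, 2 or 4 (-1.37 to -0.95).

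The second question was whether loss of Atg14 changes these loci within a cell state. At the adjusted threshold 0 of the 85 regions were called by edgeR in eTregs and 0 in cTregs, against 0.0228% and 0.0163% of all tested regions. DESeq2 called 0 in either state too, with 7 of the regions given no adjusted p in eTregs, against 0.097% and 0.0293% of all regions that had one. At any fold, 9 regions in eTregs and 4 in cTregs had an unadjusted edgeR p below 0.05, against 7.95% and 4.01% of all tested regions. At an unadjusted p below 0.05 with the same fold threshold, 7 regions were higher in Atg14-deficient eTregs and none was lower, against 4.59% and 1.77% of all tested regions. These were 2 regions each of Nfkb1, Rela and Tnfaip3 and 1 of Nfkbia, that is 8.24% of the members. The median log2 difference in eTregs was 0.09 over the members and 0.06 over all tested regions. The count was 4 without control eTreg replicate 1 or Atg14-deficient eTreg replicate 4. In cTregs 2 regions were higher and 2 lower at the unadjusted threshold, against 1.99% and 1.35% of all tested regions, and the count was 2 without control cTreg replicate 3 or Atg14-deficient cTreg replicate 2. All values that follow between genotypes failed the adjustment.

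The Nfkbia region 27.7 kb downstream of the start, chr12:55464716-55465186, had the smallest unadjusted p of the members in eTregs. It held 3.25, 3.67 and 5.41 CPM in control eTregs and 7.79, 7.53, 10.1 and 8.22 CPM in Atg14-deficient eTregs, without overlap. In cTregs it held 13.0, 12.9 and 10.3 CPM in control and 13.0, 13.2, 11.8 and 9.64 CPM in Atg14-deficient libraries. The log2 difference was 1.00 ± 0.32 (SE, edgeR adjusted p = 0.420, two-sided exact permutation p = 0.0571, the smallest that 3 against 4 libraries allow) in eTregs and -0.03 ± 0.29 in cTregs. The region was thus less open in control eTregs than in control cTregs, by -1.52 ± 0.33 (edgeR adjusted p = 0.00637), while the state comparison in Atg14-deficient cells gave -0.49 ± 0.28 (edgeR adjusted p = 0.259). The difference between these, 1.03 ± 0.43, passed the unadjusted threshold with an edgeR adjusted p of 1.00, and it missed the unadjusted threshold without control eTreg replicate 1 or 2 (0.90 to 1.30).

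The Nfkbia promoter region, chr12:55491727-55492961, was also lowest in control eTregs, at higher counts. It held 116, 115 and 103 CPM in control eTregs and 132, 147, 118 and 165 CPM in Atg14-deficient eTregs, which did not overlap, with 129 to 155 CPM in control cTregs and 125 to 150 CPM in Atg14-deficient cTregs. The log2 difference in eTregs was 0.34 ± 0.12 (edgeR adjusted p = 0.457, two-sided exact permutation p = 0.0571), below the fold threshold. The difference of the genotype effect between cell states was 0.41 ± 0.17 (edgeR adjusted p = 1.00). Between states the promoter had a log2 fold change of -0.39 ± 0.13 in control and 0.02 ± 0.11 in Atg14-deficient cells. Upstream by 13.5 kb, at chr12:55505989-55506304, the values crossed over. Control cells held 5.74 to 7.13 CPM in cTregs and 1.58 to 4.69 CPM in eTregs, and Atg14-deficient cells held 1.93 to 4.67 CPM in cTregs and 4.60 to 6.59 CPM in eTregs. The difference of the genotype effect between states was 1.77 ± 0.62 (edgeR adjusted p = 1.00), which kept its side of the unadjusted threshold under every alternative that could test it.

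**Figure D4:**
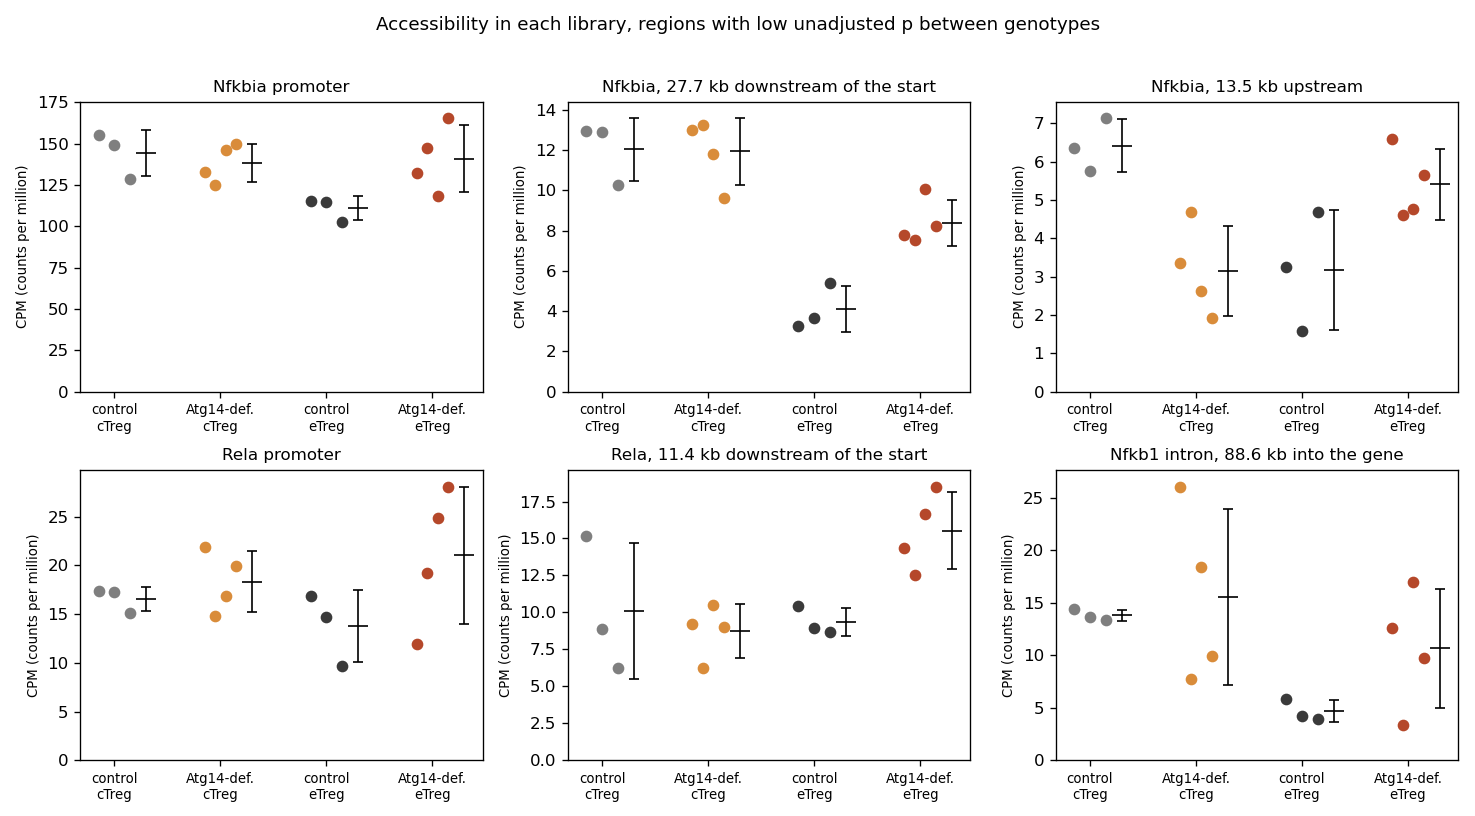
CPM (y axis, from 0) of 6 member regions in each library, by group, with the mean and SD beside the points. At the Nfkbia region 27.7 kb downstream of the start, the control eTreg libraries lie between 3.25 and 5.41 CPM and the Atg14-deficient eTreg libraries between 7.53 and 10.1 CPM.

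Both Rela regions were higher in Atg14-deficient eTregs at the unadjusted threshold. The promoter region, chr19:5637099-5638098, held 16.9, 14.7 and 9.73 CPM in control and 11.99, 19.2, 24.9 and 28.0 CPM in Atg14-deficient eTregs, which overlapped (0.64 ± 0.27, edgeR adjusted p = 0.567). The region just beyond the end of the gene, 11.4 kb from the start (chr19:5648713-5649092), held 10.4, 8.92 and 8.65 CPM in control and 14.4, 12.6, 16.7 and 18.5 CPM in Atg14-deficient eTregs, without overlap (0.75 ± 0.30, edgeR adjusted p = 0.539, two-sided exact permutation p = 0.0571). The first value missed the threshold with the replicate number as a block (0.53) and without control eTreg replicate 3 or Atg14-deficient eTreg replicate 3 or 4 (0.42 to 0.83), and the second without control eTreg replicate 3 or Atg14-deficient eTreg replicate 4 (0.65 to 0.83).

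The Nfkb1 intron regions at 88.6 kb and 62.6 kb were higher in Atg14-deficient eTregs by 1.24 ± 0.42 (edgeR adjusted p = 0.457) and 1.34 ± 0.51 (edgeR adjusted p = 0.521). At 62.6 kb the control eTregs held 0.651, 2.89 and 1.80 CPM and the Atg14-deficient eTregs 3.90, 6.69, 5.29 and 3.08 CPM, without overlap, and the value missed the threshold without control eTreg replicate 1 (1.01 to 1.80). At 88.6 kb Atg14-deficient eTreg replicate 2, at 3.35 CPM, was below all control eTregs. The Tnfaip3 region 89.6 kb upstream was higher in Atg14-deficient cells in both states, by 0.56 ± 0.25 in eTregs (edgeR adjusted p = 0.575) and 0.50 ± 0.24 in cTregs (edgeR adjusted p = 1.00). The eTreg groups overlapped, at 10.1 to 19.4 CPM in control and 15.1 to 31.8 CPM in Atg14-deficient libraries, and the value missed the threshold without control eTreg replicate 1 or 3 or Atg14-deficient eTreg replicate 1 (0.33 to 0.79). The value in cTregs was at the fold threshold, and it was lost under TMM scaling, DESeq2's size factors, loess offsets, halved counts or the DESeq2 test and without control cTreg replicate 1 or 3 or Atg14-deficient cTreg replicate 1 or 3 (0.42 to 0.59).

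The remaining values in cTregs came from regions with few counts. They were the Tnfaip3 region 161.0 kb upstream (1.18 ± 0.52, edgeR adjusted p = 1.00), the Tnfaip3 intron region 3.2 kb downstream of the nearer start (-1.23 ± 0.55, edgeR adjusted p = 1.00) and the Nfkbia region 13.5 kb upstream (-1.03 ± 0.44, edgeR adjusted p = 1.00). The first missed the threshold without control cTreg replicate 1 or 3 or Atg14-deficient cTreg replicate 2 (0.94 to 1.45). The second missed it without control cTreg replicate 1 or 2 or Atg14-deficient cTreg replicate 1, 2 or 3 (-1.95 to -0.99), and the third without control cTreg replicate 1 or 3 or Atg14-deficient cTreg replicate 3 or 4 (-1.28 to -0.86). The promoter regions of Nfkb1, Rel and Relb differed between genotypes by at most 0.14 ± 0.12 on the log2 scale in either state. For the difference of the genotype effect between cell states, 0 of the 85 regions and 0% of all tested regions passed the adjusted threshold in edgeR, and 5 passed the unadjusted one, against 3.05% of all tested regions. DESeq2 called 0 regions, and 6 had an unadjusted edgeR p below 0.05 at any fold, against 0% and 3.25% of all tested regions. The count of 5 was 3 without control cTreg or eTreg replicate 1, 2 without Atg14-deficient cTreg replicate 2 or control eTreg replicate 3, and 8 without Atg14-deficient cTreg replicate 4.

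**Figure D5:**
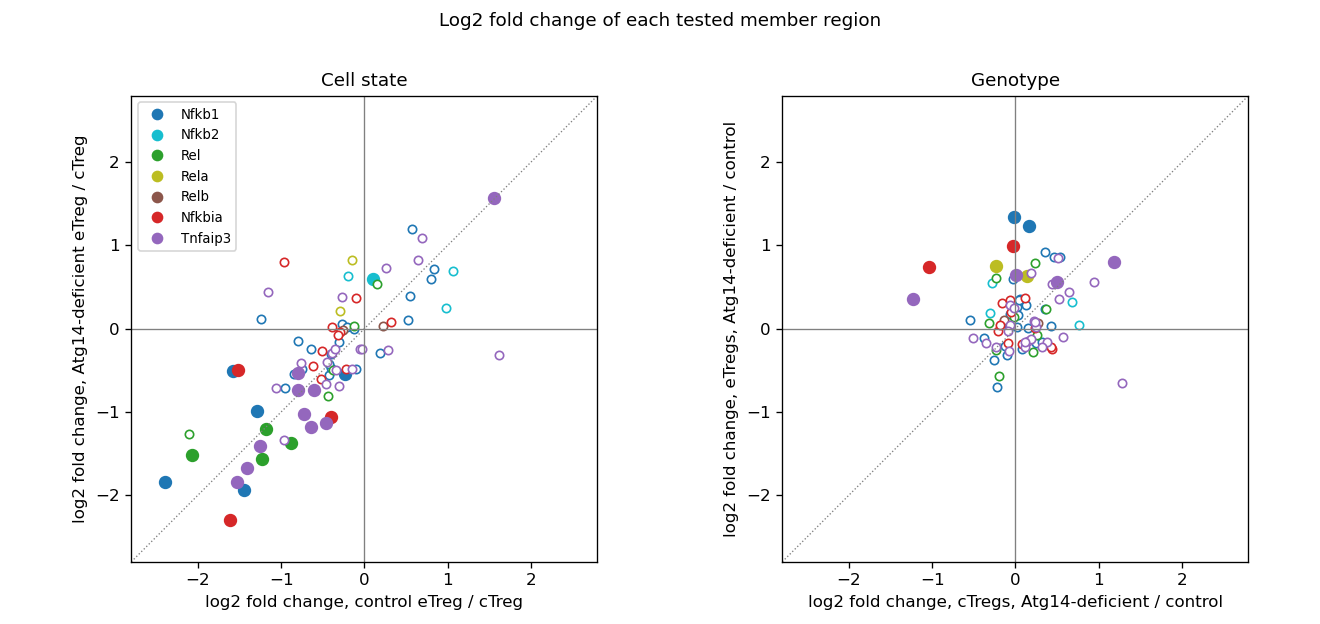
Log2 fold change of each of the 85 tested regions, coloured by gene. Left, eTregs over cTregs in control (x axis) against Atg14-deficient cells (y axis), with filled points called in either genotype. Right, Atg14-deficient over control in cTregs (x axis) against eTregs (y axis), with filled points past the unadjusted threshold in either state. Most filled points on the left lie below 0 on both axes, and the dotted line marks equal values.

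The other genes of the pathway were read from a list of 42 genes, of which 39 had a tested region, 328 in all. In control cells 21 of these regions (6.40%) were called lower in eTregs and 1 (0.305%) higher, against 3.29% and 2.01% of all tested regions. In Atg14-deficient cells 24 (7.32%) were lower and 11 (3.35%) higher, against 5.4% and 4.41%. The median log2 fold changes were -0.16 and -0.08. The kinases and adaptors that carry the signal had 12 lower and 1 higher of 177 regions in control cells and 17 lower and 6 higher in Atg14-deficient cells. Other inhibitors and regulators had 8 lower and 0 higher of 104, then 6 lower and 3 higher. Genes known as induced by NFκB had 1 lower (2.13%) and 0 higher of 47, then 1 lower and 2 higher (4.26%), which is at or below the shares of all tested regions. Between genotypes edgeR called none of the 328 regions in either state, and 18 (5.49%) were higher and 2 (0.610%) lower in eTregs at the unadjusted threshold, against 4.59% and 1.77% of all tested regions, with 6 (1.83%) and 2 in cTregs, against 1.99% and 1.35%.

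By the smallest p, the regions named from that list in control cells had as nearest gene Prkcq, 33.5 kb from its start, a kinase downstream of the T cell receptor (-2.65 ± 0.47, edgeR adjusted p = 0.00117), Tax1bp1, 21.8 kb away, an adaptor of the Tnfaip3 product (-3.38 ± 0.60, edgeR adjusted p = 0.00121), and Nfkbiz, 238.9 kb away, a nuclear regulator of NFκB (-1.80 ± 0.32, edgeR adjusted p = 0.00130). In Atg14-deficient cells the nearest genes were Nfkbiz, with the same region (-2.29 ± 0.29, edgeR adjusted p = 2.19e-05), Ikbkb, 6.0 kb away, the kinase that marks the product of Nfkbia for removal (-2.02 ± 0.28, edgeR adjusted p = 6.02e-05), and Map3k7, 98.7 kb away, the kinase above it (-2.67 ± 0.42, edgeR adjusted p = 0.000272). All were lower in eTregs.

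Across the 14 libraries, the promoter regions of other genes whose log2 CPM followed that of a member promoter most closely were sought among 13151 promoter regions. For Nfkb1 they were those of Myc (Pearson r = 0.90) and Tubb2b (0.87), for Rel those of Atxn7l1 (0.86) and Apbb3 (0.85), for Nfkbia those of 4931428F04Rik (0.88) and Dnajc6 (0.86), for Rela those of Gpc2 (0.90) and Mrps18b (0.86), for Nfkb2 that of Kdm2a (0.89), for Relb those of Heatr1 (0.92) and Tra2a (0.91), and for Tnfaip3 those of Snd1 and Kctd1 (0.85 each). The libraries share groups and depth, the best of many regions is reported, and the r describe likeness only.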

How the data were processed

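Bulk ATAC-seq of sorted cTregs and eTregs was analysed in 14 libraries, each mapped to its group by its label. After trimming, alignment, removal of duplicates and a shift for the transposase, the authors restricted the reads to nucleosome-free fragments, used MACS2 for peaks of each library, retained those that recurred in 50% or more of a genotype's replicates, merged them and deposited raw counts for each merged region, obtained with bedtools. Of the positive counts, 81.4% were even, so that both ends of a fragment may have been counted, and halved counts were an alternative. The methods name mm9 and the processing notes GRCm38. All 67207 regions on chromosomes lay within the ends of GRCm38, which was used, with RefSeq starts and positions counted from 1. A promoter region had its midpoint within 1000 bp of a start.

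Counts were fitted in edgeR 4.0.16 (R 4.3.3, limma 3.58.1) with total counts as library sizes, its filter on low counts and 1 robust quasi-likelihood model of the 4 groups, whose common biological variation was 25.6%. P-values were adjusted over all 61366 tested regions. Called regions passed an adjusted p of 0.05 and a log2 fold change beyond 0.5. The unadjusted threshold used the same values with the raw p. CPM are counts per 1000000 of the library's total.

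The members and lists were chosen with earlier results of these data known. Named were the promoter region and the region of highest mean CPM of each gene, every region called in any comparison, the 5 members of smallest p in each genotype comparison, up to 2 like promoter regions for each gene and 3 regions of the pathway list in each state comparison. Alternatives were TMM, DESeq2 1.42.0 size factors and its Wald test, loess offsets, no filter, a minimum of 10 counts in all libraries, a larger fold threshold (log2 of 1), halved counts, members by gene body or by nearest start alone, the replicate number as a block, and each library left out. Same-numbered eTreg and cTreg libraries of Atg14-deficient cells deviated together (r between 0.12 and 0.24 over 4 pairs). The main fit had no block, so its values between states are unpaired. The numbers were used as pairs only in the replicate block. The labels do not say what a number stands for. A marker gene and a like promoter region are not reported here.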

Additional observations from a re-analysis of the deposited data

Results flagged for a closer look

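In a group of 4 libraries, a library stood apart from the others by Dixon's test for 4 of the 74 groups examined, where chance alone is set to give about 1 in 20. Atg14-deficient cTreg libraries at the Tnfaip3 region 70.3 kb downstream of the start had a highest value of 2.57 CPM against a median of 1.63. Atg14-deficient eTreg libraries at the Tnfaip3 promoter region 0.7 kb downstream of the outer start had a lowest value of 10.5 CPM against a median of 17.4. At the Nfkbia region 6.6 kb upstream their highest value was 12.4 CPM against a median of 6.64. At the Nfkb1 intron region 61.3 kb into the gene their highest value was 3.18 CPM against a median of 0.932.

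The genotype effect differed between eTregs and cTregs at the unadjusted threshold for 5 regions, all with an edgeR adjusted p of 1.00. The difference on the log2 scale was 1.77 for the Nfkbia region 13.5 kb upstream and 1.03 for that 27.7 kb downstream. It was 0.98 for the Rela region 11.4 kb from the start and 0.83 for the Nfkb2 promoter region with the NFκB motif. The Tnfaip3 region 58.1 kb downstream of the start had -1.94, and was the only one of the 5 below 0. With 1 library left out the first value kept its side of the threshold (1.45 to 2.21), and the second missed it without control eTreg replicate 1 or 2 (0.90 to 1.30). The Rela value missed it without control cTreg replicate 1, Atg14-deficient cTreg replicate 2, control eTreg replicate 2 or 3 or Atg14-deficient eTreg replicate 4 (0.56 to 1.19). The Nfkb2 value missed it without control cTreg or eTreg replicate 1 or 3, Atg14-deficient cTreg replicate 1 or 2 or eTreg replicate 3 or 4 (0.54 to 1.12), and the Tnfaip3 value without control cTreg replicate 2 or 3, Atg14-deficient cTreg replicate 2, control eTreg replicate 3 or Atg14-deficient eTreg replicate 3 (-3.11 to -1.47).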

How the results depend on the processing

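In control cells, the 7 regions called between cell states became 12 with halved counts, 17 with the replicate block and 3 with members taken by gene body alone, and the count was between 3 and 9 with 1 library left out. In Atg14-deficient cells, the 21 regions became 5 by gene body alone, and the count was between 9 and 22 with 1 library left out. Regions at the unadjusted threshold between genotypes in eTregs (7) became 2 with a log2 fold change beyond 1 and 3 by gene body alone, and were between 4 and 9 with 1 library left out. In cTregs the 4 became 1 with at least 10 counts in every library, with halved counts and by gene body alone, and were between 2 and 5 with 1 library left out. For the difference of the genotype effect between cell states, the 5 became 3 with at least 10 counts in every library or a log2 fold change beyond 1. They became 1 by gene body alone, and were between 2 and 8 with 1 library left out. Gene bodies hold fewer of the regions and a larger fold passes fewer. The cause of the other shifts was not tested. All other counts stayed within 1.5 times the value in the report.

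With the replicate block, the call of the Rela region 11.4 kb from the start between states of Atg14-deficient cells was gained (0.83), and no call of a named region in that comparison was lost, with 24 regions in place of 21. Control and Atg14-deficient libraries of a number did not deviate together, and of the control eTreg and cTreg pairs 1 had an r of 0.05 and the others 0.19 and 0.21, so whether numbers pair the control libraries was left undecided. Of the 28 calls of named regions between states, none reversed in 604 recomputations, of which 523 kept the call and 81 lost it. Of the 15 values past the unadjusted threshold only, between genotypes or for the difference of the genotype effect between states, none reversed in 319 recomputations. Of these, 268 kept their side and 51 lost it. Of the other values, 63 of 3052 recomputations passed the threshold, and 98 changed sign without being called. The standard error of the log2 fold change between states of control cells was 0.13 at the Nfkbia promoter region and 0.60 at the Rel region 31.1 kb upstream, so that depth limits what the thinner regions could show.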
